A study of Mus musculus with 24 samples.

Results

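The 41 genes described here encode the enzymes and carriers that build glycosaminoglycans and set their sulfation. They were chosen by name, as the rows of the gene table that carry these 41 symbols among 22053 entries by a rule that reads no measured value; the list was drawn up with earlier results of these data known. They cover the supply of sulfate and sugar (4 genes), the linker that joins a chain to its core protein (5), chondroitin chain synthesis (6), the modification of chondroitin and dermatan sulfate (10), hyaluronan synthesis (3), heparan chain synthesis (5), heparan modification (6) and the sulfatases that trim heparan sulfate outside the cell (2). RNA was sequenced from skeletal cells of male mice on postnatal day 10, sorted as CD45-, Ter119-, CD31-, Thy1-, 6C3-, CD200+ and CD105- and divided by embigin (EMB), a cell surface glycoprotein. All mice were labelled WT, and the series design names a Zic1-Cre: the vertebral cells were either GFP+ (Zic1-Cre positive) or GFP- (Zic1-Cre negative), and all long bone cells (femur and tibia) were Zic1-Cre negative. The 6 groups, vertebral GFP+, vertebral GFP- and long bone, each EMB+ and EMB-, had 4 libraries each, 24 in all. No source used here names the animals behind a library, so p-values measure the spread between libraries, which may be technical in part. Titles number the libraries of the other groups biol rep 1 to 4, but all 4 long bone EMB+ titles read biol rep 1. Whether these are repeats of 1 sample is not stated, and their replicate numbers here are names only. The titles of the 4 vertebral GFP- EMB+ libraries name another population (Emb- GFP+) than their cell type field, which was followed here. In those 4 libraries Emb, the embigin gene, was 44.4 to 55.3 FPKM, against 46.6 to 56.5 in vertebral GFP+ EMB+ and 1.32 or less in every EMB- library, and Zic1 was at most 0.108 FPKM, against 0.349 to 2.39 in the GFP+ libraries. Results that use this group cannot be given without it.

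Glycosaminoglycans are long sugar chains. Sulfate enters the cell through Slc26a2, a sulfate transporter, and is activated by Papss1 and Papss2, the enzymes that make the sulfate donor PAPS, while Ugdh makes the UDP-glucuronic acid used for chondroitin, heparan and hyaluronan chains. Chondroitin sulfate and heparan sulfate grow on a shared linker that starts with a xylose on a serine of the core protein, and sulfotransferases then place sulfate groups on them; hyaluronan is made at the cell membrane without a core protein or sulfate. In growth cartilage, chondroitin sulfate on aggrecan holds water in the matrix, and heparan sulfate binds growth factors of the hedgehog, FGF, BMP and Wnt families. Loss of function in Slc26a2, Papss2, Chst3 or Csgalnact1 disturbs the growing skeleton in people or mice.

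The deposited FPKM of a library (fragments mapped to a gene, scaled by its transcript length and by the mapped total) summed to between 382364 and 568495, and 10158 to 11204 genes reached 1 FPKM. The counts behind the values were not used here, so the depth is unknown. Within 5 groups the lowest correlation between libraries was 0.978 or more, but long bone EMB- replicate 4 stood apart from its group (lowest correlation 0.925), and the results of the 3 comparisons that use it are given again without it after the site comparisons. Summed FPKM of 7 chondrocyte markers (Col2a1, Acan, Sox9, Matn1, Matn3, Comp, Col9a1) lay between 26705 and 58876 in every library, none of them at 0. Erythroid markers (5 of 6 found in the file) summed to 16798 to 34932 in long bone EMB-, 5959 to 10131 in vertebral GFP- EMB- and 97.9 to 795 in the other 16 libraries, against a sort on absence of Ter119. In bulk RNA, fewer cells of a type and less RNA per cell cannot be told apart.

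**Figure D1:**
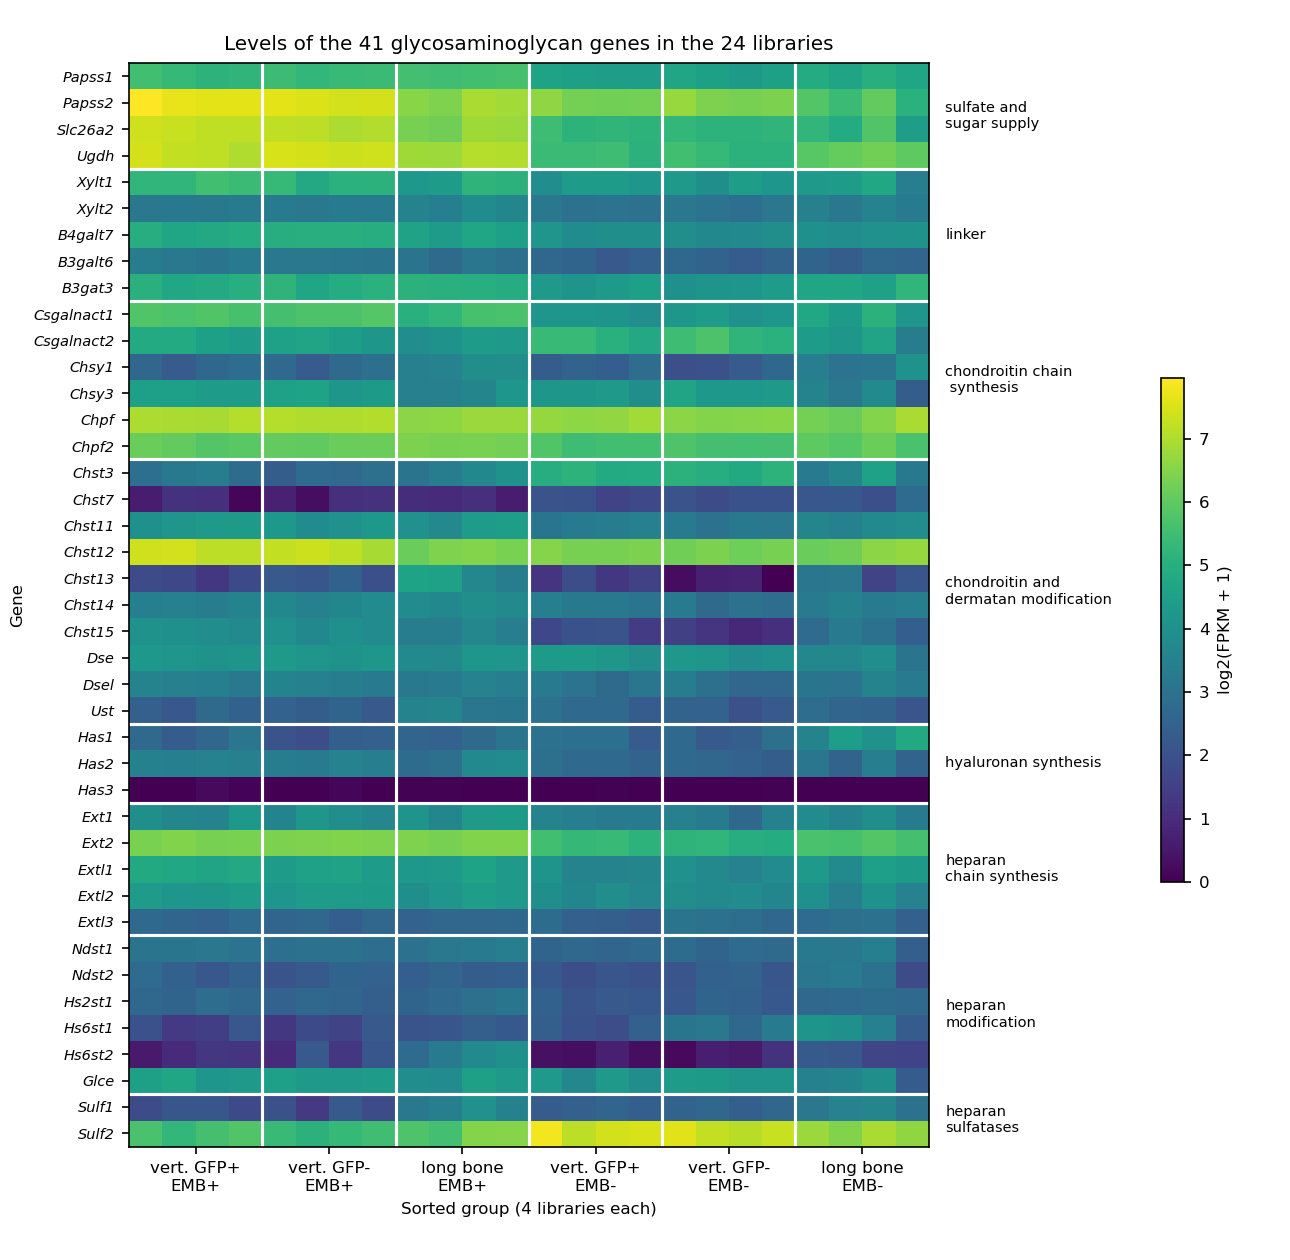
Colour gives log2(FPKM + 1) of the 41 genes (rows, in the order of the pathway) in the 24 libraries (columns, 4 per sorted group). Papss2, Slc26a2, Ugdh, Chpf, Chst12, Ext2 and Sulf2 are among the brightest rows and Has3 the darkest, and the step between the EMB+ columns on the left and the EMB- columns on the right is seen in the supply genes and, in the other direction, in Sulf2 and Chst3.

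Of the 41 genes, 40 reached 1 FPKM in at least 4 libraries, the filter that 11767 genes passed, and were tested. Has3, a hyaluronan synthase, was at most 0.152 FPKM in any library and was not tested. Levels per length differed widely among the members. Papss2 had the highest level of any library (247 FPKM, vertebral GFP+ EMB+ replicate 1), and Chpf, Chst12, Sulf2, Ugdh, Slc26a2, Chpf2 and Ext2 averaged between 32.8 FPKM (Ext2, vertebral GFP- EMB-) and 179 FPKM (Sulf2, vertebral GFP+ EMB-) in every group. Chst7, Chst13 and Hs6st2 averaged below 1 FPKM in at least 1 group.

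EMB+ and EMB- cells differed at most steps of the pathway, and in both directions. In vertebral GFP+ cells 20 of the 40 members were higher and 5 lower in EMB+ (limma, adjusted p under 0.05), where 42.1% of all tested genes were higher and 7.85% lower, so the share of members that rose (50%) was near the background. Only 3 were lower without vertebral GFP+ EMB- replicate 2 or 3 or EMB+ replicate 4. In vertebral GFP- cells 23 were higher and 7 lower, against 41.7% and 10.6% of all genes. In long bone 18 were higher and 4 lower, against 17.5% and 16% of all genes. Without long bone EMB- replicate 4 these were 20 and 5 (21.2% and 17.5% of all genes). In a fit of the long bone groups alone fewer members were higher. Fewer of all 11767 genes were higher there too (848, against 2063 in the main fit). The median log2 change of the members was 0.43, 0.52 and 0.43 in that order, and that of all tested genes 0.32, 0.30 and 0.08. The step over all genes in the vertebral groups depends on how libraries are scaled: median-ratio scaling brought the medians of all genes to 0.01, -0.03 and 0.01. On that scale 13 members were higher and 7 lower in vertebral GFP+ cells (all genes 12.9% and 14.7%), 14 and 8 in vertebral GFP- cells (15.3% and 19.7%) and 17 and 4 in long bone (12.2% and 18.3%).

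The 3 EMB comparisons share no libraries. Across them 12 members were higher in EMB+ cells each time, 2 were lower each time (Chst7 and Sulf2), 4 passed in none and none had calls of opposite sign. The same patterns were found for 10.4%, 2.36%, 26.8% and 6.22% of all 11767 tested genes. Of these, 9 members were higher in all 3 comparisons under each of the 3 scalings tried (none, median-ratio, quantile): B4galt7, Chst11, Chst15, Csgalnact1, Ext2, Papss1, Papss2, Slc26a2 and Ugdh. Chst7 and Sulf2 were lower under all 3 scalings as well. Calls that did not hold under all 3 scalings were, in vertebral GFP+ cells, B3gat3, Chpf2, Ext1, Extl2, Has2, Hs2st1 and Ndst1, in vertebral GFP- cells B3galt6, Chpf, Chpf2, Dsel, Ext1, Extl1, Extl2, Has2 and Xylt1, and in long bone Dse, all of them higher.

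**Figure D2:**
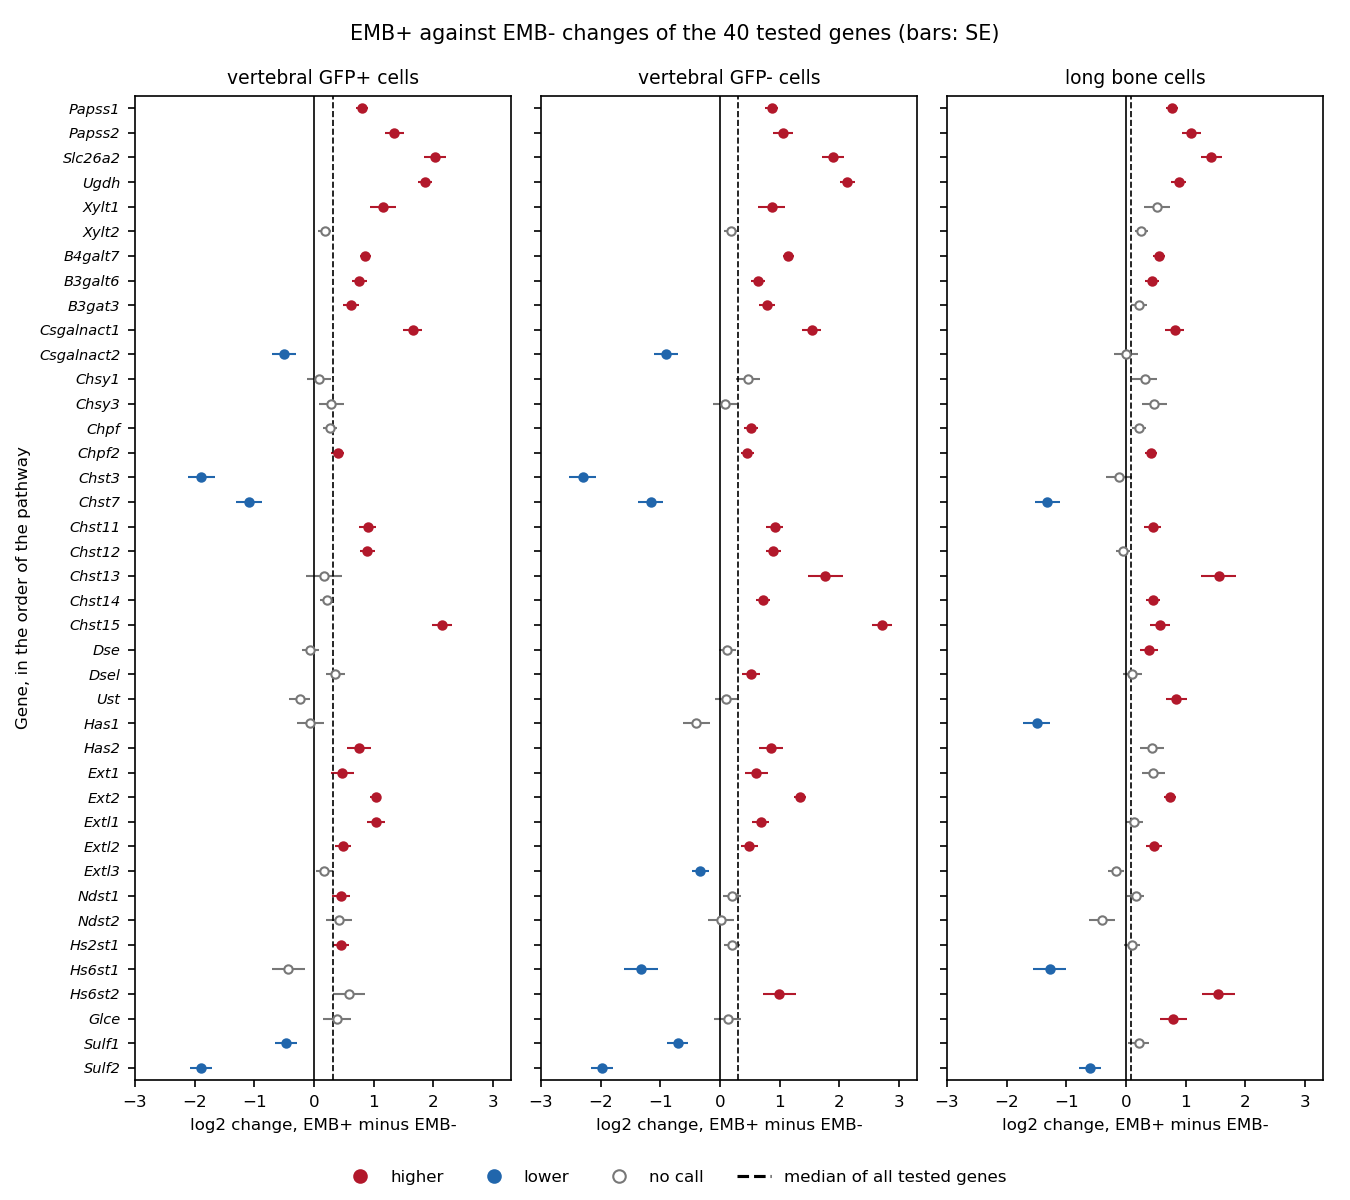
Each point is the log2(FPKM + 1) change of a member, EMB+ minus EMB-, with its SE as a bar, in vertebral GFP+ (left), vertebral GFP- (middle) and long bone cells (right). Red points were higher and blue points lower, open points passed no test, and the dashed line is the median of all 11767 tested genes (0.32, 0.30 and 0.08). Chst15, Ugdh and Slc26a2 lie far to the right and Chst3 and Sulf2 far to the left in both vertebral panels, while Chst3 is at the zero line in long bone.

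All 4 genes of sulfate and sugar supply were higher in EMB+ cells in all 3 populations (median log2 changes of 1.60, 1.47 and 0.99), and no EMB+ library of a population overlapped its EMB- libraries for any of them. Among all members 21, 23 and 13 were separated upward in this way. The share of all genes so separated was not counted, so these counts cannot be set against a background. By the test 42.1%, 41.7% and 17.5% of all genes were higher in EMB+ cells. Slc26a2, the plasma membrane sulfate transporter, read 164.3, 157, 147 and 146 FPKM in the 4 vertebral GFP+ EMB+ libraries and 44.0, 34.1, 35.6 and 34.3 in EMB-. In vertebral GFP- cells it read 145, 143, 124 and 129 in EMB+ and 37.9, 34.5, 34.4 and 36.1 in EMB-. In long bone it read 78.6, 73.5, 112 and 107 in EMB+ and 36.7, 28.6, 54.5 and 21.2 in EMB-. The EMB- libraries of the 3 populations had close means, from 35.2 to 37.0 FPKM, and the highest EMB+ libraries were vertebral. On the log2(FPKM + 1) scale, which is used for all changes here and understates those of low genes, Slc26a2 rose by 2.03 (SE 0.18, adjusted p = 2.27e-09), 1.89 (SE 0.18, adjusted p = 5.19e-09) and 1.43 (SE 0.18, adjusted p = 7.41e-07) in that order.

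Ugdh, the UDP-glucose dehydrogenase (chromosome 5, 65413221 to 65435949, GRCm38), read 173.03, 149, 147 and 127 FPKM in vertebral GFP+ EMB+ and 41.6, 42.3, 43.8 and 33.4 in EMB- libraries. Vertebral GFP- libraries read 178, 174.8, 161.3 and 165.9 in EMB+ and 46.1, 39.5, 34.0 and 33.4 in EMB-. In long bone it read 112, 109.6, 132 and 132 in EMB+ and 58.0, 65.8, 76.5 and 61.7 in EMB-, so the gap was narrower there. Its mean was 3.70-fold and 4.44-fold higher in EMB+ in the vertebral populations and 1.85-fold in long bone. The changes were 1.86 (SE 0.12, adjusted p = 1.06e-11), 2.13 (SE 0.12, adjusted p = 4.51e-13) and 0.88 (SE 0.12, adjusted p = 3.11e-06).

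Papss2 (chromosome 19, 32620005 to 32667187), the PAPS synthase linked to skeletal growth, read 247, 204, 198 and 196 FPKM in vertebral GFP+ EMB+ and 98.2, 78.2, 75.6 and 78.2 in EMB- libraries. Vertebral GFP- values were 196, 184, 170.4 and 173.3 in EMB+ and 105, 81.9, 78.6 and 82.2 in EMB-, and in long bone 93.1, 84.0, 122 and 115 in EMB+ and 55.7, 42.1, 65.6 and 33.2 in EMB-. Papss2 was higher in EMB+ in each population, and its long bone values lay below the vertebral GFP- values of the same EMB state. Papss1 (chromosome 3, 131564768 to 131643671), the other PAPS synthase, was at 45.4, 39.1, 34.3 and 36.2 FPKM in EMB+ and 23.5, 21.7, 20.9 and 20.9 in EMB- libraries of vertebral GFP+ cells. The vertebral GFP- values were 43.3, 37.2, 41.4 and 41.6 in EMB+ and 24.9, 22.0, 19.2 and 22.2 in EMB-. In long bone it read 46.8, 44.4, 46.2 and 48.9 in EMB+ and 29.0, 23.95, 30.9 and 24.6 in EMB-. Papss2 rose by 1.35, 1.06 and 1.09 (SE 0.16, adjusted p = 7.86e-06) and Papss1 by 0.80, 0.86 and 0.77 (SE 0.10, adjusted p = 2.2e-06) in vertebral GFP+, vertebral GFP- and long bone cells.

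Of the 5 linker genes 4 were higher in EMB+ cells in each vertebral population and 2 in long bone, and none was lower. Of all genes 42.1%, 41.7% and 17.5% were higher and 7.85%, 10.6% and 16% lower. Under all 3 scalings B3galt6, B4galt7 and Xylt1 stayed higher in vertebral GFP+ cells. In vertebral GFP- cells B3gat3 and B4galt7 did, and in long bone B3galt6 and B4galt7. B4galt7 (chromosome 13, 55599896 to 55610443), which adds the first galactose of the linker, averaged 27.7 ± 2.44 FPKM (SD, n = 4, as for all means here) in vertebral GFP+ EMB+ and 14.8 ± 1.25 in EMB- cells, 30.4 ± 0.404 and 13.3 ± 1.03 in vertebral GFP- cells, and 22.4 ± 2.13 and 14.9 ± 0.840 in long bone. Its changes were 0.86, 1.14 and 0.55, each past the test. B3galt6, which adds the second galactose, was also higher in all 3 (0.76, 0.63 and 0.44). B3gat3, which adds the glucuronic acid that completes the linker, and Xylt1, a xylosyltransferase that starts it, were higher in the vertebral populations (0.62 and 0.79, 1.16 and 0.87). In long bone B3gat3 changed by 0.22 (SE 0.13, adjusted p = 0.211) and Xylt1 by 0.52 (SE 0.22, adjusted p = 0.0765), short of the threshold. Xylt2, the second xylosyltransferase, passed in none, with changes of 0.18, 0.18 and 0.25, though its long bone change passed under quantile normalization (0.28, adjusted p = 0.0432).

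Of the 6 chondroitin chain genes, the pair of enzymes that begin a chondroitin chain went opposite ways in vertebra. Csgalnact1 (chromosome 8, 68356781 to 68735146) averaged 52.5 ± 2.70 FPKM in vertebral GFP+ EMB+ and 16.1 ± 1.37 in EMB- cells, a rise of 1.65 (SE 0.16, adjusted p = 6.26e-09). It rose by 1.54 in vertebral GFP- and 0.81 in long bone cells, where the groups overlapped. Csgalnact2 (chromosome 6, 118107452 to 118139140) read 28.1, 27.9, 21.9 and 20.1 FPKM in vertebral GFP+ EMB+ and 40.7, 41.2, 32.0 and 27.1 in EMB- libraries, a range that overlaps. It read 22.3, 23.9, 20.8 and 17.6 in vertebral GFP- EMB+ and 43.6, 52.1, 35.7 and 32.6 in EMB- libraries, all of them higher than in EMB+. In long bone EMB+ it read 14.0, 15.8, 19.5 and 18.7 and in EMB- 19.7, 17.6, 24.1 and 9.41, with no difference in the mean. The change was -0.50 (SE 0.20, adjusted p = 0.0436) for GFP+ and -0.91 (SE 0.20, adjusted p = 0.000646) for GFP- vertebral cells, and 0.00 (SE 0.20, adjusted p = 0.991) for long bone. The call in vertebral GFP+ cells was lost without vertebral GFP+ EMB+ replicate 3 or 4, without EMB- replicate 1, 2 or 3 (adjusted p 0.0537 to 0.125), with no filter on low values (0.0768), and when the group with conflicting labels was left out of the fit (0.0582).

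The genes that extend the chain moved less. Chpf2, a chondroitin polymerizing factor, rose in all 3 (0.40, 0.46 and 0.42), but 44.1% of its annotated exon bases overlap Smarcd3 on the opposite strand, and the counting is not stated to use strand. Its partner Chpf averaged between 89.3 and 130.0 FPKM and passed in vertebral GFP- cells (0.52). With the replicate number as a block, which pairs libraries of the same number, Chpf also rose in vertebral GFP+ cells (0.27, adjusted p = 0.00109). The chondroitin synthases Chsy1 and Chsy3 passed in none of the 3 comparisons on the deposited scale without the block. With the block Chsy1 rose by 0.47 in vertebral GFP- cells (adjusted p = 0.00882) and Chsy3 by 0.29 in vertebral GFP+ cells (adjusted p = 0.00847). Under quantile normalization Chsy3 rose in long bone (0.49, adjusted p = 0.0442). Chsy3 read 21.3, 21.7, 20.3 and 19.8 FPKM in vertebral GFP+ EMB+ and 17.6, 17.3, 18.2 and 14.3 in EMB- libraries. Vertebral GFP- libraries read 22.5, 23.3, 17.6 and 19.3 in EMB+ and 24.1, 17.8, 17.7 and 18.5 in EMB-, and in long bone 9.98, 10.1, 11.4 and 17.2 in EMB+ and 10.7, 8.07, 12.6 and 4.13 in EMB-. In each EMB state every long bone library was below every vertebral GFP- library.

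The 10 genes that modify chondroitin and dermatan sulfate went both ways: 3, 6 and 6 were higher in EMB+ cells and 2, 2 and 1 lower in vertebral GFP+, vertebral GFP- and long bone. The shares of all genes were 42.1%, 41.7% and 17.5% higher and 7.85%, 10.6% and 16% lower. Chst15 (chromosome 7, 132235780 to 132317228), which adds a further sulfate to 4-sulfated N-acetylgalactosamine, read 15.98, 14.8, 13.9 and 12.6 FPKM in vertebral GFP+ EMB+ and 2.29, 3.04, 3.07 and 1.67 in EMB- libraries. It read 15.2, 12.2, 15.1 and 13.2 in vertebral GFP- EMB+ and 1.83, 1.33, 0.843 and 1.15 in EMB- libraries, a 10.8-fold difference of means. In long bone it read 9.18, 9.08, 11.7 and 9.48 in EMB+ and 5.89, 8.69, 7.07 and 4.17 in EMB-. The groups did not overlap in any population. The changes were 2.14 (SE 0.17, adjusted p = 3.2e-10), 2.72 (SE 0.17, adjusted p = 2.37e-12) and 0.57 (SE 0.17, adjusted p = 0.011), and 17.9% of its exon bases overlap Gm10584 on the opposite strand.

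Chst3 (chromosome 10, 60181532 to 60219260), a chondroitin 6-O-sulfotransferase, went the other way in vertebra. It read 6.48, 8.24, 9.40 and 6.05 FPKM in vertebral GFP+ EMB+ libraries and 29.9, 34.3, 28.3 and 28.5 in EMB-. In vertebral GFP- cells it read 4.10, 5.93, 5.57 and 6.74 in EMB+ and 33.5, 29.9, 27.7 and 34.1 in EMB-, so the EMB- means were 4.01-fold and 5.60-fold higher. In long bone the EMB+ values were 7.36, 9.14, 12.03 and 15.5 and the EMB- values 8.53, 11.3, 22.3 and 8.31, which overlap. The change of Chst3 was -1.89 (SE 0.22, adjusted p = 2.4e-07) for GFP+ and -2.30 (SE 0.22, adjusted p = 6.38e-09) for GFP- vertebral cells, and -0.12 (SE 0.22, adjusted p = 0.723) for long bone. Chst7 (chromosome X, 20059560 to 20097521), the other 6-O-sulfotransferase, was low but fell in all 3 populations. It read 0.544, 1.26, 1.15 and 0.0990 FPKM in vertebral GFP+ EMB+ and 3.07, 3.05, 2.08 and 2.36 in EMB- libraries. Vertebral GFP- libraries read 0.675, 0.233, 1.10 and 1.18 in EMB+ and 3.12, 2.57, 3.04 and 2.99 in EMB-, and in long bone 1.04, 0.953, 1.17 and 0.572 in EMB+ and 3.47, 3.56, 2.83 and 5.80 in EMB-. No EMB+ library reached its EMB- counterparts, and Chst7 fell by 1.09, 1.16 and 1.32 (largest adjusted p = 0.000174).

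The 4-O-sulfotransferases were higher in EMB+ cells where they passed. Chst11, the main enzyme of cartilage 4-sulfation, averaged 17.3 ± 1.96 FPKM in vertebral GFP+ EMB+ and 8.80 ± 1.07 in EMB- cells, with rises of 0.90, 0.91 and 0.45 in the 3 populations. Chst12 averaged 155 ± 14.9 against 82.6 ± 5.76 FPKM in vertebral GFP+ and 145 ± 17.3 against 77.0 ± 4.74 in vertebral GFP- cells, and rose by 0.90 and 0.89. In long bone its means were 81.0 ± 7.48 and 84.9 ± 15.6, a change of -0.05 (SE 0.12, adjusted p = 0.776). Chst13 (chromosome 6, 90308349 to 90325185), a further member of this family, had its highest levels in long bone, where it read 23.6, 22.7, 11.96 and 9.29 FPKM in EMB+ and 7.65, 7.95, 2.08 and 3.40 in EMB- libraries. Vertebral GFP- libraries read 3.63, 3.36, 4.53 and 2.87 in EMB+ and 0.202, 0.613, 0.680 and 0 in EMB- libraries, the last listed at 0. In vertebral GFP+ cells the values were 2.55, 2.32, 1.45 and 2.43 in EMB+ and 1.31, 2.75, 1.42 and 1.97 in EMB- and overlapped. The rise of Chst13 was 1.55 (SE 0.30, adjusted p = 0.000194) for long bone and 1.76 (SE 0.30, adjusted p = 2.57e-05) for GFP- vertebral cells, and its change for GFP+ vertebral cells was 0.17 (SE 0.30, adjusted p = 0.655).

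Of the genes for dermatan sulfate, Chst14, the dermatan 4-O-sulfotransferase, rose in vertebral GFP- and long bone cells (0.72 and 0.45) with a change of 0.22 (SE 0.12, adjusted p = 0.127) for GFP+ vertebral cells. The epimerases Dse and Dsel, which turn glucuronic into iduronic acid, each passed once: Dsel rose in vertebral GFP- cells (0.52) and Dse in long bone (0.38, SE 0.15, adjusted p = 0.0496). Ust, which sulfates the uronic acid, rose in long bone by 0.84 (SE 0.18, adjusted p = 0.000671), from a mean of 4.80 to 9.35 FPKM.

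The hyaluronan synthases differed from each other. Has1 (chromosome 17, 17843328 to 17855188) read 10.7, 20.6, 16.1 and 27.3 FPKM in long bone EMB- libraries and 5.06, 4.69, 5.72 and 7.34 in EMB+, without overlap, and fell by 1.50 (SE 0.23, adjusted p = 1.19e-05). In vertebra it stayed between 2.69 and 7.71 FPKM: it read 5.64, 3.96, 5.16 and 7.71 in GFP+ EMB+, 6.79, 6.50, 6.43 and 3.83 in GFP+ EMB-, 3.10, 2.69, 4.29 and 4.38 in GFP- EMB+ and 5.66, 3.73, 4.28 and 6.74 in GFP- EMB- libraries. Its vertebral changes, -0.06 and -0.39, did not pass, though with the replicate number as a block it fell by 0.39 in GFP- cells (adjusted p = 0.0313). There it was also lower after median-ratio scaling (-0.73, adjusted p = 0.0112) and quantile normalization (-0.61, adjusted p = 0.0325). Has2, a synthase needed for limb cartilage to grow, averaged 10.2 ± 0.313 against 5.66 ± 0.737 FPKM in vertebral GFP+ and 9.61 ± 0.786 against 4.89 ± 0.676 in vertebral GFP- cells and rose by 0.75 (SE 0.20, adjusted p = 0.00355) and 0.85 (SE 0.20, adjusted p = 0.00107). Neither call held under all 3 scalings. In long bone Has2 changed by 0.44 (SE 0.20, adjusted p = 0.094).

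Of the 5 heparan chain genes 4 were higher in EMB+ cells in each vertebral population and 2 in long bone, and 1 was lower in vertebral GFP- cells. The shares of all genes were 42.1%, 41.7% and 17.5% higher and 7.85%, 10.6% and 16% lower. Ext2 (chromosome 2, 93661028 to 93822568), which forms the heparan polymerase with Ext1, averaged 81.8 ± 3.70 against 39.7 ± 4.76 FPKM in vertebral GFP+, 84.1 ± 1.40 against 32.8 ± 3.75 in vertebral GFP- and 84.5 ± 3.61 against 50.4 ± 3.78 in long bone cells. It rose by 1.03, 1.34 and 0.73 (largest adjusted p = 1.45e-06). Ext1 rose in the vertebral populations (0.48 and 0.61), Extl1 likewise (1.04 and 0.68), and Extl2 in all 3 (0.49, 0.49 and 0.46). Extl3, a transferase that starts the heparan chain, fell in vertebral GFP- cells (-0.33, SE 0.14, adjusted p = 0.0479), where the groups overlapped.

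Of the 6 genes that modify heparan 2, 1 and 2 were higher in EMB+ cells and 0, 1 and 1 lower. The lower and the higher calls in vertebral GFP- and long bone include both 6-O-sulfotransferases. The shares of all genes were 42.1%, 41.7% and 17.5% higher and 7.85%, 10.6% and 16% lower. Hs6st1 (chromosome 1, 36068400 to 36106446) read 1.47, 2.49, 2.13 and 3.62 FPKM in vertebral GFP- EMB+ and 7.55, 8.15, 5.31 and 8.96 in EMB- libraries, and 3.17, 3.38, 4.32 and 3.57 in long bone EMB+ against 16.2, 15.0, 10.0 and 4.03 in EMB-. In vertebral GFP+ cells it read 3.05, 1.54, 1.79 and 3.44 in EMB+ and 4.27, 2.99, 2.70 and 4.41 in EMB-. The change was -1.33 (SE 0.28, adjusted p = 0.00034) for GFP- vertebral and -1.28 (SE 0.28, adjusted p = 0.00082) for long bone cells, and -0.43 (SE 0.28, adjusted p = 0.198), short of the threshold, for GFP+ vertebral cells. Long bone EMB- replicate 4, the library that stood apart, had the lowest of the 4 EMB- values there and overlapped the EMB+ range. Hs6st2 (chromosome X, 51387212 to 51681856) read 5.93, 8.96, 13.1 and 14.9 FPKM in long bone EMB+ and 3.82, 3.46, 2.20 and 2.06 in EMB- libraries, a rise of 1.55 (SE 0.27, adjusted p = 8.16e-05). Vertebral levels were low: 0.486, 0.915, 1.44 and 1.37 in GFP+ EMB+, 0.292, 0.230, 0.641 and 0.239 in GFP+ EMB-, 0.940, 3.67, 1.46 and 3.34 in GFP- EMB+ and 0.152, 0.573, 0.496 and 1.27 in GFP- EMB- libraries. Its change was 0.99 (SE 0.27, adjusted p = 0.00397) in vertebral GFP- and 0.59 (SE 0.27, adjusted p = 0.0777) in vertebral GFP+ cells. Ndst1, an N-deacetylase and N-sulfotransferase, and Hs2st1, the 2-O-sulfotransferase, rose in vertebral GFP+ cells, each by 0.45, and Glce, the epimerase of heparan, in long bone (0.79, SE 0.23, adjusted p = 0.00893). The differences of these changes between populations did not pass on the deposited scale. That of Glce between vertebral GFP- and long bone cells was -0.67 (SE 0.32, adjusted p = 0.123), and it passed after median-ratio scaling (-0.97, adjusted p = 0.044) and quantile normalization (-1.01, adjusted p = 0.0157). Ndst2 passed in none.

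Both extracellular sulfatases, which remove 6-O-sulfate from heparan sulfate, were lower in vertebral EMB+ cells. Sulf2 (chromosome 2, 166073089 to 166155663) read 49.5, 37.3, 47.4 and 54.6 FPKM in vertebral GFP+ EMB+ and 225, 142, 170.6 and 177 in EMB- libraries, and 40.1, 33.7, 39.1 and 44.8 in vertebral GFP- EMB+ and 193, 147, 136 and 156 in EMB- libraries. Every EMB- library was above every EMB+ library in vertebra. In long bone it read 53.7, 47.0, 89.1 and 89.7 in EMB+ and 107, 87.0, 122 and 98.6 in EMB-, where the ranges overlapped. Sulf2 fell by 1.89 (SE 0.18, adjusted p = 9.18e-09), fell by 1.97 (SE 0.18, adjusted p = 3.26e-09) and fell by 0.61 (SE 0.18, adjusted p = 0.0119) in that order. The long bone call was lost without EMB+ replicate 1 or 2 (adjusted p = 0.0514 and 0.0665) and in a fit of the compared groups alone (0.102). Sulf1 fell in the vertebral populations (-0.46 and -0.71) and changed by 0.21 (SE 0.18, adjusted p = 0.399) in long bone.

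**Figure D3:**
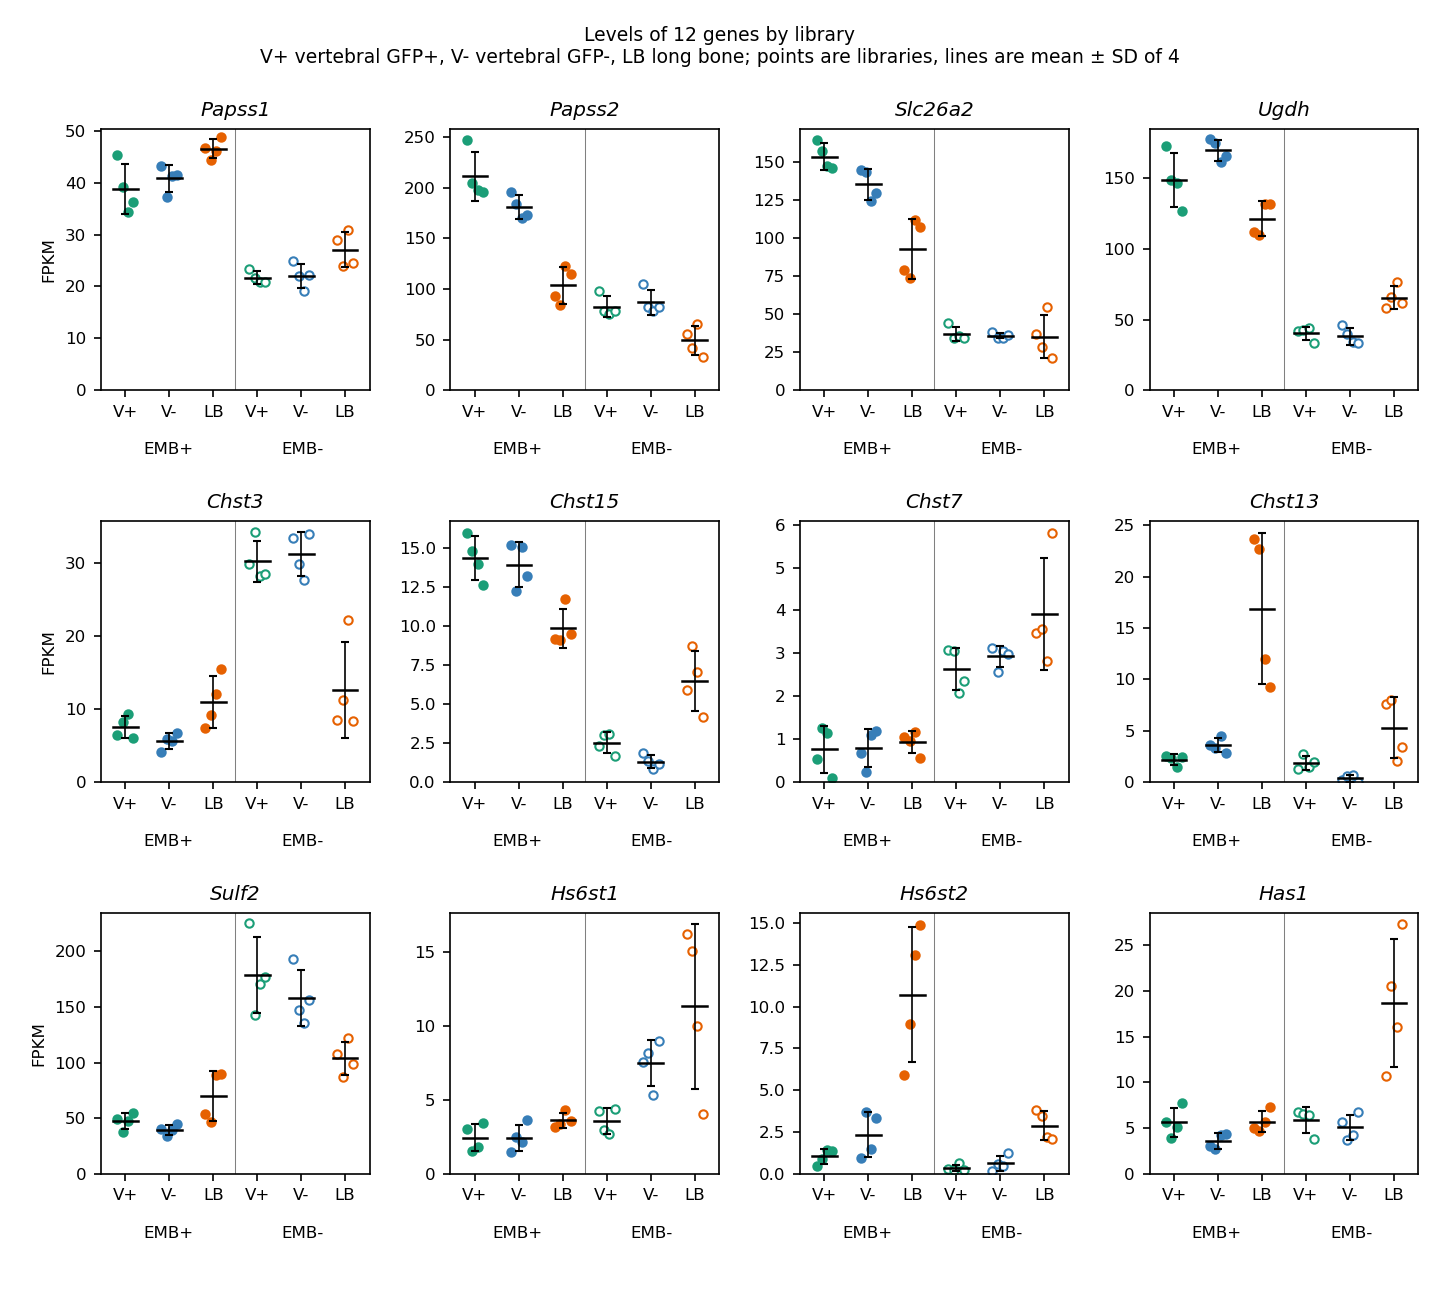
FPKM of 12 members in each library (points), by population (V+ vertebral GFP+, V- vertebral GFP-, LB long bone) with EMB+ to the left and EMB- to the right of the grey line in each panel; black lines are the mean and SD of 4 libraries. The supply genes in the top row are higher in every EMB+ group, Chst3 and Sulf2 are high in the vertebral EMB- groups, and Chst13, Hs6st2 and Has1 have their highest values in long bone.

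Ratios of related enzymes within a library do not change when a library is scaled by 1 factor, apart from the small pseudocount, and are given as a description. The log2 ratio of Chst11 to Chst3 (pseudocount 0.1) averaged 1.20 in vertebral GFP+ EMB+ and -1.77 in EMB- libraries. Chst11 RNA was thus 2.30 times Chst3 RNA in EMB+ and 0.292 times in EMB- cells. In vertebral GFP- cells the averages were 1.52 and -1.95, and in long bone 0.65 and 0.05. This pair does not give the balance of 4-O and 6-O sulfotransferase RNA, since it leaves out the 4-O enzyme Chst12. In vertebral EMB- cells Chst12 averaged 82.6 (GFP+) and 77.0 FPKM (GFP-), above Chst3 at 30.3 and 31.3. Csgalnact1 to Csgalnact2 turned from 1.11 to -1.11 in vertebral GFP+ and from 1.30 to -1.22 in vertebral GFP- cells, but stayed above 0 in long bone (1.28 in EMB+ and 0.45 in EMB-). Papss2 to Papss1 averaged 2.45 and 1.92 in vertebral GFP+ EMB+ and EMB-, 2.14 and 1.97 in vertebral GFP-, and 1.14 and 0.82 in long bone EMB+ and EMB- libraries. All 16 vertebral libraries were thus above all 8 long bone libraries for this pair. Sulf2 to Sulf1 was lowest in long bone EMB+ (2.66) and highest in vertebral GFP+ EMB- (5.30), and Xylt1 to Xylt2 ranged from 0.88 in long bone EMB- to 2.26 in vertebral GFP+ EMB+ libraries.

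**Figure D4:**
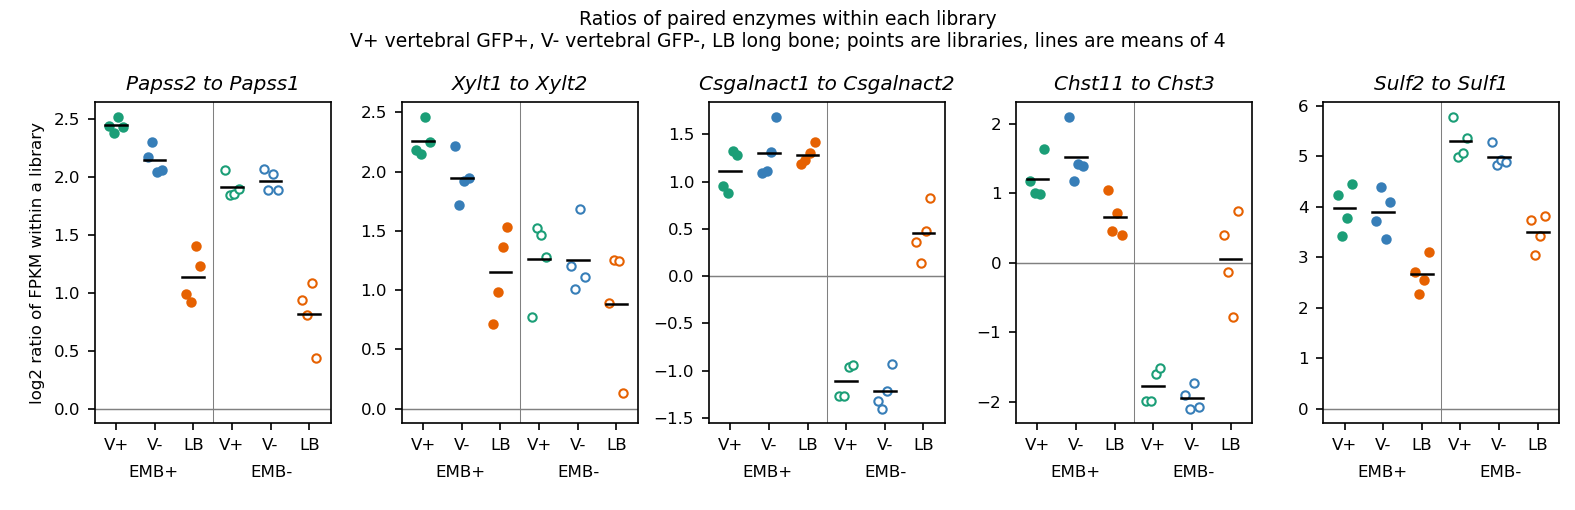
Points give the log2 ratio of the FPKM of paired enzymes within each library (pseudocount 0.1), and black lines the group means of 4 libraries, for vertebral GFP+ (V+), vertebral GFP- (V-) and long bone (LB) cells. Chst11 to Chst3 and Csgalnact1 to Csgalnact2 cross the zero line between EMB+ and EMB- in vertebra (1.20 to -1.77 and 1.11 to -1.11 in V+), and the long bone EMB- groups lie between. Chst12, a further 4-O-sulfotransferase, is not part of the pair of Chst11 and Chst3.

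The EMB differences themselves were compared between populations. Between the vertebral populations 0 members had a larger and 1 had a smaller EMB difference in GFP+ than in GFP- cells, where 3.2% and 1.67% of all genes did. That gene was Chst13 (-1.59, SE 0.42, adjusted p = 0.0221), and its call was lost without vertebral GFP+ EMB+ replicate 3, GFP+ EMB- replicate 2, GFP- EMB+ replicate 3 or GFP- EMB- replicate 4 (adjusted p 0.0546 to 0.06). It was also lost with a pseudocount of 5 (-0.61, adjusted p = 0.272) and with no filter on low values (0.0542). Markers differed in this test too: 5 of 5 erythroid and 6 of 6 cell cycle markers were higher, and 3 of 5 hypertrophic chondrocyte, 3 of 6 osteoblast, 2 of 7 chondrocyte and 2 of 6 tendon and fibroblast markers lower, and their part was not tested. For vertebral GFP- against long bone cells 9 members had a higher and 5 a lower EMB difference, against 24.7% and 5.07% of all genes. After median-ratio scaling 3 were higher (10.5% of all genes), and with quantile normalization 2 (10.4%), so only the calls of Chst15 (2.14, SE 0.24, adjusted p = 3.97e-07) and Ugdh (1.25, SE 0.17, adjusted p = 8.19e-06) held under all 3 scalings on that side. Without long bone EMB- replicate 4 the counts were 10 and 4 (29.7% and 5.77% of all genes). Has1 (1.10, SE 0.32, adjusted p = 0.0122) was lost under both scalings (0.0608 and 0.0623). On the lower side Chst3 (-2.19, SE 0.32, adjusted p = 1.39e-05), Sulf2 (-1.36, SE 0.26, adjusted p = 0.000338) and Sulf1 (-0.92, SE 0.26, adjusted p = 0.0083) had the largest values, and all 5 calls, with Csgalnact2 and Ust, held under the 3 scalings. The EMB contrasts of Chst15 and Ugdh upward, and of Chst3 and Sulf2 downward, were wider in vertebral GFP- than in long bone cells. Higher for vertebral GFP- cells as well were the EMB differences of all 5 hypertrophic chondrocyte, all 6 cell cycle, 4 of 6 osteoblast, 3 of 5 erythroid, 2 of 7 chondrocyte and 1 of 5 leukocyte markers, while 2 of 6 tendon and fibroblast markers were lower. The part of these markers in the result was not tested.

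Few members differed by GFP state within vertebra. In EMB+ cells 0 members were higher and 0 lower in GFP+ than in GFP- libraries, where 0.391% and 1.71% of all genes were, and the log2 changes ran from -0.64 to 0.51. In that comparison limma gave 2 members an unadjusted p under 0.05, Hs6st2 and Has1. Chance alone also puts some tests under that level, and the share of all genes there was not counted. Neither gene passed after adjustment in that fit. With the replicate number as a block 4 members were higher: Papss2 by 0.22 (adjusted p = 0.0261), Sulf2 by 0.25 (0.0307), Has1 by 0.51 (0.0397) and Slc26a2 by 0.18 (0.0478). In that fit 2.31% of all genes were higher and 4.87% lower. Of 5 tested leukocyte markers 3 were lower in the GFP+ libraries of this comparison (median -3.16), and 1 of 7 chondrocyte markers was lower; their part in the result was not tested. In EMB- cells 2 members were higher and 1 lower in GFP+ libraries, against 2.25% and 6.22% of all genes. Chst13 was higher by 1.06 (SE 0.30, adjusted p = 0.0218) and Chst15 by 0.62 (SE 0.17, adjusted p = 0.021), and Hs6st1 was lower, with a change of -0.89 (SE 0.28, adjusted p = 0.0473). The call of Chst13 was lost without GFP+ EMB- replicate 2 or 4 or GFP- EMB- replicate 1 or 4 (adjusted p 0.0551 to 0.0948), and that of Chst15 without GFP+ EMB- replicate 2 or 3 or GFP- EMB- replicate 3 or 4 (0.0575 to 0.102). That of Hs6st1 was lost without any GFP+ EMB- library, without GFP- EMB- replicate 1, 2 or 4 (0.0536 to 0.156), and under median-ratio scaling (0.0545). It was also lost with no filter (0.095) and when the group with conflicting labels was left out of the fit (0.0587). With a pseudocount of 5 the calls of Chst13 (0.37), Chst15 (0.181) and Hs6st1 (0.071) were all lost. All 5 erythroid, all 6 cell cycle and 1 of 5 leukocyte markers were also lower in the GFP+ libraries of this comparison. Of the other markers 4 of 5 hypertrophic chondrocyte (median 0.86), 4 of 6 osteoblast (0.95), 2 of 6 tendon and fibroblast and 1 of 7 chondrocyte markers were higher. The part of these markers in the result was not tested. With the block Ext2 was also higher by 0.27 (adjusted p = 0.0343) and Extl3 lower, with a change of -0.42 (0.0215), where 5.98% of all genes were higher and 11.3% lower.

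Site was compared with GFP state held negative. In EMB+ cells 7 members were higher and 8 lower in vertebra than in long bone, against 8.49% and 10.6% of all genes. Chst12 (0.83, SE 0.12, adjusted p = 1.39e-05), Papss2 (0.81, SE 0.16, adjusted p = 0.000545), Chsy3 (0.74, SE 0.21, adjusted p = 0.0103) and Slc26a2 (0.56, SE 0.18, adjusted p = 0.029) had the largest changes upward. Slc26a2 missed the threshold under quantile normalization (0.0609) or median-ratio scaling (0.0523), and without long bone EMB+ replicate 1 or 2 or vertebral GFP- EMB+ replicate 1 or 2 (0.0739 to 0.118). Chst13 (-1.87, SE 0.30, adjusted p = 3.46e-05), Hs6st2 (-1.83, SE 0.27, adjusted p = 1.73e-05), Sulf1 (-1.69, SE 0.18, adjusted p = 1.32e-07) and Chsy1 (-1.03, SE 0.20, adjusted p = 0.000491) were lower in vertebra. The vertebral mean of Sulf1 was 2.67 ± 0.905 FPKM and the long bone mean 10.8 ± 3.05, and those of Chsy1 were 5.49 ± 1.16 and 12.3 ± 2.34. Markers differed by site as well: 6 of 7 chondrocyte markers were higher in vertebra and 1 lower, 3 and 2 of 5 hypertrophic chondrocyte, 1 and 4 of 6 tendon and fibroblast, 0 and 3 of 6 osteoblast, 2 and 0 of 5 leukocyte and 2 and 0 of 6 cell cycle markers. Their part in the result was not tested.

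In EMB- cells 7 members were higher and 17 lower in vertebra, against 8.05% and 40.2% of all genes, so the share lower (42.5%) was at the background. The median of all genes was -0.28 here and -0.05 after median-ratio scaling, which left 9 members higher and 9 lower (15.9% and 22.6% of all genes); quantile normalization gave 11 and 7 (21.1% and 19.6%). Without long bone EMB- replicate 4 the counts were 7 and 21 (8.3% and 42.4% of all genes). Under all 3 scalings 7 were higher and 7 lower. Upward the largest were Chst3 (1.35, SE 0.22, adjusted p = 2.52e-05), Csgalnact2 (1.22, SE 0.20, adjusted p = 2.82e-05), Chsy3 (1.13, SE 0.21, adjusted p = 7.26e-05) and Glce (0.89, SE 0.23, adjusted p = 0.00237), and Sulf2, Papss2 and Dse completed that set. Downward they were Chst13 (-2.08, SE 0.30, adjusted p = 3.51e-06), Chst15 (-1.68, SE 0.17, adjusted p = 2.04e-08), Has1 (-1.64, SE 0.23, adjusted p = 2.71e-06) and Hs6st2 (-1.27, SE 0.27, adjusted p = 0.000466), with Chsy1, Sulf1 and Ugdh. Chst3 and Sulf2 were lower in vertebra among EMB+ cells and higher among EMB- cells, and Chst13, Hs6st2, Chsy1 and Sulf1 were lower in vertebra in both. All 5 erythroid and all 6 cell cycle markers were lower in vertebra in this comparison, as were 5 of 6 osteoblast and 4 of 5 hypertrophic chondrocyte markers. Of 7 chondrocyte markers 3 were higher and 1 lower, and of 6 tendon and fibroblast markers 2 and 3. The part of these markers in the result was not tested. The 2 site comparisons share no libraries, but each shares them with an EMB comparison.

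Long bone EMB- replicate 4, which stood apart, was then left out. The EMB changes in long bone were 1.44 (adjusted p = 0.000328) for Hs6st2, 1.43 (adjusted p = 0.000992) for Chst13, 1.22 (adjusted p = 5.08e-07) for Slc26a2, 0.92 (adjusted p = 8.59e-06) for Papss2, 0.86 (adjusted p = 3.33e-06) for Ugdh, 0.70 (adjusted p = 0.00251) for Ust and 0.41 (adjusted p = 0.0441) for Chst15. Downward they were -1.66 (adjusted p = 9.72e-07) for Hs6st1, -1.30 (adjusted p = 4.02e-05) for Has1, -1.15 (adjusted p = 8.66e-05) for Chst7 and -0.63 (adjusted p = 0.0128) for Sulf2, each still past the test. Glce kept its call with a smaller change (0.45, adjusted p = 0.0294), and Dse lost it (0.20, adjusted p = 0.207). B3gat3 (0.37, adjusted p = 0.0115), Chpf (0.37, adjusted p = 0.00127) and Chsy1 (0.53, adjusted p = 0.0271) were then higher in EMB+ cells and Ndst2 (-0.72, adjusted p = 0.000611) lower. For site in EMB- cells the values were 1.21 (adjusted p = 0.000124) for Chst3, 0.96 (adjusted p = 3.53e-05) for Csgalnact2, 0.85 (adjusted p = 6.83e-05) for Chsy3 and 0.55 (adjusted p = 0.00627) for Glce upward. Downward they were -2.21 (adjusted p = 4.92e-06) for Chst13, -1.85 (adjusted p = 8.61e-10) for Chst15, -1.44 (adjusted p = 7.31e-06) for Has1 and -1.38 (adjusted p = 0.000366) for Hs6st2, all still called. Dse missed the threshold there (0.28, adjusted p = 0.0626), Chpf became higher (0.21, adjusted p = 0.046), and Hs6st1 (-0.79, adjusted p = 0.00397), Ndst1 (-0.55, adjusted p = 0.000164), Ndst2 (-0.84, adjusted p = 8.52e-05) and Ext1 (-0.53, adjusted p = 0.0261) became lower. The EMB differences of vertebral GFP- minus long bone cells were 2.31 (adjusted p = 1.38e-08) for Chst15, 1.28 (adjusted p = 2.17e-06) for Ugdh, 0.90 (adjusted p = 0.0218) for Has1, -2.04 (adjusted p = 2.3e-05) for Chst3, -1.34 (adjusted p = 0.000423) for Sulf2 and -0.81 (adjusted p = 0.0135) for Sulf1, with the same calls. Extl1 (0.51, adjusted p = 0.0583) and Ust (-0.60, adjusted p = 0.0537) missed the threshold, and Ndst2 (0.75, adjusted p = 0.00808) and Slc26a2 (0.67, adjusted p = 0.015) passed it. No other member changed its call in these 3 comparisons.

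Other genes of the pathway were taken from 7 lists. Counts from these lists, and those by role above, stand against the shares of all genes in vertebral GFP+, vertebral GFP- and long bone cells. These were 42.1%, 41.7% and 17.5% higher in EMB+ and 7.85%, 10.6% and 16% lower. After median-ratio scaling they were 12.9%, 15.3% and 12.2% higher and 14.7%, 19.7% and 18.3% lower. Of 15 further genes of sulfate and nucleotide sugar supply, 10, 8 and 7 were higher in EMB+ cells of vertebral GFP+, vertebral GFP- and long bone, and none was lower; after median-ratio scaling 5, 5 and 7 were higher and 2, 0 and 1 lower. Slc35d1, a carrier of UDP-sugars into the Golgi, rose by 1.88, 2.11 and 1.15 (SE 0.18, adjusted p = 1.29e-05). Impad1, the Golgi phosphatase that clears the product of sulfation, rose by 0.82, 0.94 and 0.49, and Uxs1, which makes UDP-xylose for the linker, by 0.83, 1.14 and 0.70. Of 6 tested genes among 11 further linker and heparan genes, 2, 2 and 3 were higher and 3, 3 and 0 lower. Fam20b, the kinase of the linker xylose, rose by 1.17, 1.24 and 0.43, while Pxylp1, the phosphatase that removes that phosphate, fell by 0.76 and 1.35 in vertebra and rose by 0.46 in long bone. Hs3st1, a 3-O-sulfotransferase of heparan, fell by 2.55 and 2.47 in vertebra.

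Among the core proteins that carry the chains, 4, 4 and 5 of 10 tested chondroitin and dermatan sulfate genes were higher in EMB+ cells and 4, 4 and 1 lower. Acan, the aggrecan core, rose by 1.21, 0.96 and 0.65, and Vcan, versican, fell by 2.94 and 3.44 in vertebra. Of 12 tested heparan sulfate cores 7, 7 and 3 were higher and 1, 0 and 1 lower, and after median-ratio scaling 3, 4 and 2 were higher and 1, 1 and 1 lower. Gpc1, a glypican, rose by 2.34, 2.73 and 1.54, and Hspg2, perlecan, by 1.41 and 1.14 in vertebra. Of 9 keratan sulfate genes 1, 3 and 3 were higher and 3, 4 and 1 lower. Chst5, a keratan 6-O-sulfotransferase, fell by 3.59 and 4.29 in vertebra, from 81.7 and 104 FPKM in EMB- cells. Of 14 breakdown genes 3, 3 and 4 were higher and 4, 2 and 0 lower (1, 2 and 3 higher and 5, 6 and 0 lower after median-ratio scaling), with Gusb, the beta-glucuronidase, at 0.82, 1.10 and 0.61. Of 8 tested genes of hyaluronan binding and breakdown 4, 3 and 3 were higher and 2, 2 and 3 lower. Tnfaip6, a hyaluronan binding protein, fell by 1.64, 1.48 and 0.69.

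Markers of several cell types moved with EMB state. All 5 hypertrophic chondrocyte markers (Col10a1, Ihh, Pth1r, Mmp13, Panx3) were higher in EMB+ cells in all 3 populations, with sums of 1209 to 1496 FPKM in vertebral EMB+, 917 to 1226 in long bone EMB+ and 105 to 372 in EMB- libraries. All 6 tendon and fibroblast markers were lower in vertebral EMB+ cells and 4 of 6 in long bone, with sums of 254 to 425 FPKM in vertebral EMB+, 711 to 988 in long bone EMB+ and 959 to 2426 in EMB- libraries. Cell cycle markers summed to 20.8 to 25.2 FPKM in vertebral GFP+ EMB-, 131 to 763 in the other EMB- libraries and 52.5 to 117 in EMB+ libraries, so they rose with EMB in vertebral GFP+ cells (6 of 6) and fell in long bone (6 of 6). Osteoblast markers (6) were higher for 3, 5 and 3 genes and lower for 1, 0 and 1, with sums of 628 to 5887 FPKM. All 5 tested erythroid markers were lower in EMB+ cells of vertebral GFP- and long bone and none passed in vertebral GFP+ cells. Of 7 chondrocyte markers 6, 6 and 4 were higher in EMB+ cells of vertebral GFP+, vertebral GFP- and long bone and 1, 1 and 0 lower (medians 0.99, 0.96 and 0.49). Their summed FPKM went the other way in vertebra. It was 48003 to 50597 in EMB+ and 53006 to 56327 in EMB- libraries of GFP+ cells. In GFP- cells it was 48186 to 50213 and 54283 to 58876. In long bone the sums overlapped (26705 to 39051 and 28284 to 37671). Of 5 tested leukocyte markers 3, 4 and 1 were higher and 0, 0 and 1 lower (medians 0.84, 1.65 and -0.17). Leukocyte markers reached 1871 FPKM in a vertebral GFP- EMB+ library and 420.4 or less in the other groups. Endothelial markers summed to 6.69 FPKM or less, with Tie1 at 0 in 18 of 24 libraries. The part of these markers in the results above was not tested.

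All 41 members were found in the GENCODE M21 annotation of GRCm38, on 18 chromosomes, Chst7 and Hs6st2 on X. Exons of 8 members overlap a gene on the opposite strand, by 2.62% of exon bases in Sulf2 (Ncoa3) to 44.1% in Chpf2, and Hs6st1 overlaps Gm37335 over 8.07%. The start of 31 members was taken from RefSeq (GRCm38.p6), and the 250 bases before each start were searched on both strands for 4 motifs. The RefSeq start of Extl1 lay 11303 bases and that of Ndst2 4235 bases from the deposited start of the gene. The GC box searched was GGGCGG, and it was found in 22 of 31 members (71%), against 32.7% of 32851 windows of that length. Each member has 1 window, while the background takes every entry, chosen neither by gene nor by expression. The median share of G and C was 52.4% in all windows, and member windows held 43.2% to 76.4%. The part of G and C content in the GC box share was not tested. The TATA box, searched as TATAAA at any position in the window, was found in 2 members (6.45%) against 12.4% of all windows. The SOX motif was searched as ACAATG and found in 1 member (Xylt2) against 10.7% of all windows. The RUNX motif was searched as TGTGGT and found in 1 member (Dse) against 14% of all windows. No window was searched for Ndst1, Xylt1, Has2, Chsy3, Sulf1, Ext1, Has3, Extl3, Csgalnact1 and Slc26a2. Ndst1, Chsy3 and Slc26a2 were left out of the search, so whether RefSeq holds an entry for them is not stated here.

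The windows of 4 members are shown, 5′ to 3′ on the gene's own strand, to set a pair of genes that rose in vertebral EMB+ cells beside a pair that fell: Papss2 (chr19:32619755-32620004, plus strand) and Chst15 (chr7:132317229-132317478, minus strand), higher in EMB+ cells, and Chst3 (chr10:60219261-60219510, minus strand) and Sulf2 (chr2:166155684-166155933, minus strand), lower in EMB+ cells. Capitals mark the motif matches.
Papss2: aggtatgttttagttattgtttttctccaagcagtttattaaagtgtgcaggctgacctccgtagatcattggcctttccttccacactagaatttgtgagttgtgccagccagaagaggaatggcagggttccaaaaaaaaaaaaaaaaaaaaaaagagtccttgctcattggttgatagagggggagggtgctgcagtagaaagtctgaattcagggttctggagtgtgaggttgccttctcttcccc
Chst15: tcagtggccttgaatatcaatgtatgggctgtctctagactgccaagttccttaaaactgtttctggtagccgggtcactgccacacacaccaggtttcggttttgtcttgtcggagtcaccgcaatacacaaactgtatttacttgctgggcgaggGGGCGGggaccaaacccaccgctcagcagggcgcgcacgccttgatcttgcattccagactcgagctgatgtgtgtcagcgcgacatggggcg
Chst3: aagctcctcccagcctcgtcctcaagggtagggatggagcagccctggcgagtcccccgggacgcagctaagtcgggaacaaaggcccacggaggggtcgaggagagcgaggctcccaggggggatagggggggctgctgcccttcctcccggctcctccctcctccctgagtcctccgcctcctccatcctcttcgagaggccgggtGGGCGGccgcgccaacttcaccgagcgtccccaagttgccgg
Sulf2: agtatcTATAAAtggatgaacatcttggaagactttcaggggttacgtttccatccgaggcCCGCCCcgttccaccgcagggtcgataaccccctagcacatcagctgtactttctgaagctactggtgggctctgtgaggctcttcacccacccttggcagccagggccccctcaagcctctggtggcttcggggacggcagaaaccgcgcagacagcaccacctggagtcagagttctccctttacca
The Papss2 window holds no match to the 4 motifs and 43.2% G and C, whereas that of Papss1, the other PAPS synthase, holds 1 GC box and 65.2%. Chst15, Chst3 and Sulf2 each hold 1 GC box. Sulf2 also holds a match to TATAAA, near the end of its window that is farthest from the start. So the GC box stands before genes of both directions, and its presence is a description of these letters only.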

How the data were processed

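RNA from 24 sorted cell libraries was extracted with an RNeasy kit and turned into libraries with SMART-Seq v4 and Nextera XT, per the labels' protocols. The authors deposited FPKM per gene for protein-coding genes. Per the submitters' processing notes the tools were Cufflinks 2.1.1, STAR 2.5.2 and bcl2fastq 2.19, with build GRCm38, and the annotation release is not given in the sources used here. Read counts were not used here, so the depth is unknown, and a value of 0 is called listed at 0. Of 22053 entries, 46 with a repeated identifier, 56 with a repeated symbol and 3 with a failed estimate were left out.

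Groups follow the cell type labels. Log2(FPKM + 1) of the 11767 genes with at least 1 FPKM in at least 4 libraries was fitted with limma 3.58.1 in R 4.3.3 (moderated, with trend and robust settings, 1 fit of all 6 groups, 18 residual degrees of freedom). P-values are two-sided and Benjamini-Hochberg adjusted over all tested genes, with a threshold of 0.05, in 7 comparisons and 2 differences of EMB differences. The procedure was tested on simulated data. The members, the other pathway lists and the markers were chosen with earlier results of these data known. The rule for naming took the 4 members with the largest change among those past the threshold in each direction and comparison, and the other members are named by their role.

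Same-numbered libraries deviated together (every pair's correlation over 0.1) for EMB in vertebral GFP- cells (0.135 to 0.236), GFP in EMB+ cells (0.169 to 0.337) and GFP in EMB- cells (0.130 to 0.292), where blocked values are given. For EMB in vertebral GFP+ cells the correlations were all positive (0.0971 to 0.279), but the lowest missed 0.1. Blocked values are given there for Chpf and Chsy3 and as counts. For site in EMB- cells the lowest was -0.297. Long bone EMB+ titles all read biol rep 1, so those libraries could not be paired by number. Alternatives were other pseudocounts (0.1 and 5), filters and scalings, fits of the compared groups, the replicate block, and leaving out libraries. Positions are from GENCODE M21 and promoter windows from RefSeq (GRCm38.p6).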

Additional observations from a re-analysis of the deposited data

Results flagged for a closer look

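In 8 of 84 sets of 4 libraries examined, 1 library stood far from the other 3, where chance gives about 1 in 20. Papss2 in replicate 1 stood above the others in 3 groups, with 247.5 FPKM for EMB+ and 98.2 for EMB- cells of the vertebral GFP+ population, and 104.8 for vertebral GFP- EMB- cells. Replicate 1 was also the highest in vertebral GFP- EMB+ cells (196.1), without standing far from the others. Slc26a2 in vertebral GFP+ EMB- replicate 1 (44.0 FPKM), Chst15 in long bone EMB+ replicate 3 (11.7), Chsy3 in vertebral GFP- EMB- replicate 1 (24.1) and Hs6st2 in vertebral GFP+ EMB- replicate 3 (0.641) were above their groups. Has1 in vertebral GFP+ EMB- replicate 4 (3.83) was below its group.

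The EMB difference of 7 named members differed between populations by the test of that difference in limma. Chst13 differed by -1.59 between vertebral GFP+ and vertebral GFP- cells. Between vertebral GFP- and long bone cells Chst15 (2.14), Ugdh (1.25) and Has1 (1.10) had the higher EMB difference in vertebra, and Chst3 (-2.19), Sulf2 (-1.36) and Sulf1 (-0.92) the lower.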

How the results depend on the processing

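Of 857 alternative values for 50 named results, 812 kept their direction and side of the threshold, 45 fell short of it and none reversed; for the counts below that moved, the cause was not tested. For EMB in vertebral GFP+ cells 3 members were lower with no filter (989 of 17614 genes). There 13 were higher under quantile normalization (14.7% of all genes) and 13 under median-ratio scaling (12.9%). For EMB in vertebral GFP- cells 14 were higher under median-ratio scaling (15.3% of all genes). In long bone 11 were higher in a fit of the compared groups alone, as were 848 of 11767 genes (2063 in the main fit). For GFP in EMB+ cells 4 were higher with the replicate block (2.31% of all genes). For GFP in EMB- cells 0 were higher with a pseudocount of 5 (170 of 11767 genes) and 4 under quantile normalization (4.1%). There 0 were lower with a pseudocount of 5 (558 of 11767 genes), no filter (695 of 17614) or median-ratio scaling (6.23%). Without the libraries with conflicting labels 0 were lower as well (665 of 11767), and 2 with the replicate block (11.3%). For site in EMB- cells 11 were higher (21.1% of all genes) and 7 lower (19.6%) under quantile normalization, and 9 were lower under median-ratio scaling (22.6%). In the compared groups alone 10 were lower (3154 of 11767 genes), and with the replicate block 10 (27.2%). The EMB difference in vertebral GFP+ minus GFP- cells was lower for 0 members with a pseudocount of 5 or no filter and for 2 under quantile normalization. The EMB difference in vertebral GFP- minus long bone cells was higher for 2 under quantile normalization (10.4%) and 3 under median-ratio scaling (10.5%).

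Leaving out each library gave 19 to 21 higher and 3 to 5 lower for EMB in vertebral GFP+, 22 to 24 and 6 to 7 in vertebral GFP-, and 15 to 23 and 3 to 5 in long bone. Of all 11767 genes 4172 to 4765 were then higher and 829 to 883 lower in vertebral GFP+ cells. The ranges were 4340 to 4655 and 1127 to 1193 in vertebral GFP-, and 1653 to 2497 and 1647 to 2061 in long bone. GFP gave 0 and 0 in EMB+ and 0 to 2 and 0 to 1 in EMB- cells, and site 5 to 8 and 7 to 8 in EMB+ and 7 and 12 to 21 in EMB- cells. For GFP the ranges over all genes were 21 to 43 and 145 to 202 in EMB+ cells. In EMB- cells they were 180 to 235 and 577 to 669. For site they were 786 to 933 and 1064 to 1197 in EMB+ and 837 to 1071 and 4224 to 4988 in EMB- cells. The differences gave 0 and 0 to 2, and 7 to 10 and 4 to 6. Over all genes they gave 320 to 365 and 135 to 204, and 2550 to 3497 and 519 to 679. In 2 comparisons not every pair of same-numbered libraries passed a correlation of 0.1. There the replicate block gave 26 higher and 6 lower for EMB in vertebral GFP+ cells (53.2% and 10.2% of all genes). For site in EMB- cells it gave 6 and 10 (5.65% and 27.2%). The log2 ratio of Sulf2 to Sulf1 in vertebral GFP- EMB- was 4.75 with a pseudocount of 1. Comparisons that use the group with conflicting labels could not be run without it.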
